A study of Mus musculus with 12 samples.

Results

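A set of 10 genes that mark the intestinal epithelium, the single layer of cells lining the gut, were followed in mouse colon: Epcam, the cadherins Cdh1 and Cdh17, the brush border gene Vil1, the keratins Krt8, Krt18, Krt19 and Krt20, and the transcription factor genes Cdx1 and Cdx2. They were chosen by name, as the probe sets of the array whose annotated gene symbol was exactly 1 of these 10, and probe sets of the same gene were averaged. All 10 genes were measured, by 12 probe sets, among 21314 named genes. The mice were 6 to 8 weeks old and fell into 4 groups of 3: Parp1-/- mice given 4% dextran sulfate sodium (DSS) in the drinking water for 7 days, Parp1-/- mice on plain water, wild-type mice given the same DSS treatment and wild-type mice on plain water. Parp1 encodes a poly(ADP-ribose) polymerase that is active at DNA breaks, and DSS is a sulfated polysaccharide that injures the colon lining and brings on colitis. RNA of the washed whole colon, which holds epithelium, muscle, connective tissue, nerves and leukocytes, was hybridised to 1 Affymetrix array per mouse. The sources used here do not say how the Parp1 allele was made or how the mice were bred. For every probe set the values were taken as log2 values, with the median of the 12 arrays at 0. Thus 0 is the middle array, and a gene's level can be compared between arrays but not with the level of another gene. Neither the log base nor the direction is stated, and base 2 with more RNA at larger values was assumed. A gene was called where its limma p, adjusted by Benjamini-Hochberg over all 21314 genes, was under 0.05, and with 3 arrays a group the small number of arrays limits precision.

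Epithelial cells hold each other through cadherins, whose tails are tied to the actin skeleton, and they carry a skeleton of keratin filaments that form from a type I and a type II keratin in pairs. In simple epithelia Krt8 is the type II partner of the type I keratins Krt18, Krt19 and Krt20. Colonocytes bear microvilli on the face toward the gut, bundled by villin, the product of Vil1. Cdx1 and Cdx2 encode homeodomain factors that keep intestinal cells intestinal, and in human cells CDX2 is known to activate CDH17 and other intestinal genes through AT-rich sites.

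The promoters of 3 of these genes are shown because they include Epcam and Krt20, which had the smallest errors of the set, and Vil1, which had the largest difference between the genotypes. They are the 250 bases before the annotated start, from RefSeq on build GRCm38.p6, written 5′ to 3′ on the strand of the gene, at chr17:87635729-87635978 (plus strand) for Epcam, chr11:99438154-99438403 (minus strand) for Krt20 and chr1:74409134-74409383 (plus strand) for Vil1. Capitals mark TTTAT or its reverse complement ATAAA, the AT-rich core that CDX factors prefer, searched on both strands.
Epcam: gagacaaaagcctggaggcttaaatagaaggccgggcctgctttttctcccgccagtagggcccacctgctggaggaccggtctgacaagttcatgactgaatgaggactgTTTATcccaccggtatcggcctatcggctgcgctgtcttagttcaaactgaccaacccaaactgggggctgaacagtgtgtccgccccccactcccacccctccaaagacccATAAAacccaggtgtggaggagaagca
Krt20: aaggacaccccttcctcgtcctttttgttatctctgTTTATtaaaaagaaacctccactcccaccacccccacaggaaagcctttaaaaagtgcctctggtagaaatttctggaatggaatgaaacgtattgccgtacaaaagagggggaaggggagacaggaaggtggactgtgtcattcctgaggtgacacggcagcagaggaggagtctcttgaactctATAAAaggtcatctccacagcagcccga
Vil1: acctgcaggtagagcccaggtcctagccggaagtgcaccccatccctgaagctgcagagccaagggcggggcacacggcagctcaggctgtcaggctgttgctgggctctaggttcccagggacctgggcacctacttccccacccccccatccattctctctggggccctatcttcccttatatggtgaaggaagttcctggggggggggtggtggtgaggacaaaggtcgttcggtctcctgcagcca

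Epcam and Krt20 each held the motif at 2 places, beginning 139 and 27 bases before the start in Epcam and 214 and 28 bases before it in Krt20, while Vil1 held none in this window. RefSeq's table had a promoter for 6 of the 10 genes, and in these 6 the motif occurred in Epcam and Krt20 and not in Vil1, Krt8, Krt18 or Cdx2. It occurred in 37.3% of 32851 promoters of the same length, so a match describes the letters and no site of binding. Krt8 and Krt18 are neighbours on chromosome 15 with 0 protein-coding genes between them and lie on opposite strands, and Krt19 and Krt20 lie on chromosome 11 with 50 protein-coding genes between them.

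Some arrays stood apart from the others before any comparison was made. The mean of 18 measured housekeeping genes, which most cells use, was -1.13 in the array labelled wild-type DSS 1 and -1.66, -1.05 and -1.26 in wild-type water 1 to 3, against -0.02 to 0.39 in the other 8 arrays. In those 4 arrays the median of 1056 smell receptor genes lay between 0.38 and 0.42, against -0.12 to 0.05 in the others, and the SD over all probe sets was 0.67 to 0.87, against 0.26 to 0.39. A separate set of 3 arrays, Parp1-/- DSS 1 and Parp1-/- water 2 and 3, had a mean of 2.76 to 2.77 over 10 smooth muscle genes, against -0.56 to 0.06 in the other 9. Parp1, the altered gene, averaged -0.09 ± 0.12 in Parp1-/- DSS, -0.04 ± 0.03 in Parp1-/- water, 0.43 ± 0.39 in wild-type DSS and 0.43 ± 0.79 in wild-type water (SD, n = 3 each). The array labelled wild-type water 1 had Parp1 at -0.41, below each of the 6 Parp1-/- arrays, and Parp1 was called in no comparison, with log2 differences of -0.52 ± 0.33 in DSS and -0.47 ± 0.33 in water for Parp1-/- against wild type (limma, SE; adjusted p = 0.872 and 0.273). The sources used here do not say whether its probes overlap the altered part of the gene, so it checks the labels only weakly.

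The epithelial genes were lowest in wild-type mice on water. The mean of the 10 genes was 0.20, 0.04 and -0.04 in Parp1-/- DSS 1 to 3, and 0.16, 0.02 and 0.04 in Parp1-/- water. It was -0.69, -0.05 and 0.39 in wild-type DSS and -1.70, -1.20 and -1.18 in wild-type water. The wild-type water arrays thus lay below the other 9, and the next lowest was wild-type DSS 1. These 4 are the arrays in which the housekeeping genes were low, and the part of that shift in the epithelial values was not tested. In RNA of a whole organ, fewer epithelial cells and less of an mRNA per epithelial cell cannot be told apart. In wild-type water 1 all 10 genes lay below 0, and in wild-type water 2 and 3 all but Cdx2 did.

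**Figure D1:**
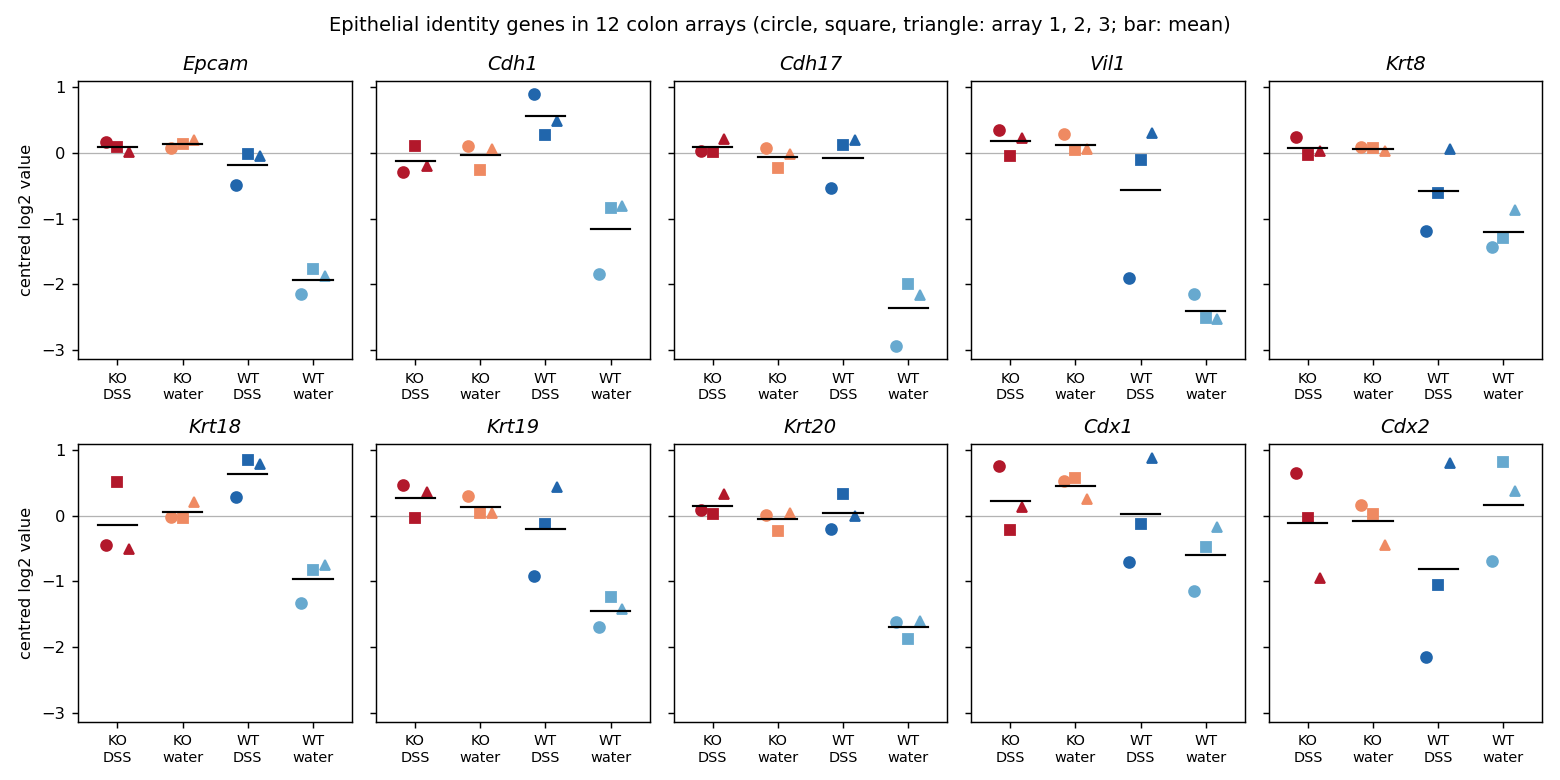
Centred log2 value of each of the 10 genes (vertical axis) in Parp1-/- DSS, Parp1-/- water, wild-type DSS and wild-type water arrays (KO is Parp1-/-, WT is wild type; n = 3 each, 1 point per mouse, bar at the mean). For Epcam the 3 wild-type water arrays sit between -2.15 and -1.76 and the other 9 between -0.49 and 0.20, while the 4 groups of Cdx2 overlap.

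Epcam, the adhesion protein by which epithelial cells are often sorted, had the smallest standard error of the 10 genes. Its value was 0.16, 0.09 and 0.02 in Parp1-/- DSS 1 to 3 and 0.08, 0.13 and 0.20 in Parp1-/- water. It was -0.49, -0.02 and -0.04 in wild-type DSS and -2.15, -1.76 and -1.87 in wild-type water. The wild-type water arrays lay more than a log2 unit below the rest, and the other 3 groups lay close to each other. Cdh17, the cadherin of intestinal cells, was also lowest in wild-type water, with a wider spread there. It was 0.03, 0.02 and 0.20 in Parp1-/- DSS and 0.07, -0.22 and -0.02 in Parp1-/- water, and it was -0.54, 0.12 and 0.19 in wild-type DSS and -2.94, -1.99 and -2.16 in wild-type water. Wild-type water 1 had the lowest Cdh17 of all arrays, and wild-type DSS 1 the lowest outside that group.

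Vil1 was 0.35, -0.04 and 0.23 in Parp1-/- DSS 1 to 3 and 0.28, 0.04 and 0.05 in Parp1-/- water. It was -1.90, -0.12 and 0.30 in wild-type DSS and -2.15, -2.51 and -2.53 in wild-type water. Wild-type DSS 1 therefore stood with the water arrays rather than with the other 2 DSS arrays, and gave Vil1 an SD of 1.17 within wild-type DSS, against 0.14 to 0.21 in the other 3 groups.

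Among the keratins, Krt20, the keratin of mature surface cells, was 0.08, 0.03 and 0.32 in Parp1-/- DSS and 0.01, -0.23 and 0.04 in Parp1-/- water. It was -0.21, 0.33 and -0.01 in wild-type DSS and -1.62, -1.87 and -1.61 in wild-type water, where all 3 arrays lay below every other array. Krt19, a type I keratin found along much of the crypt, was 0.47, -0.03 and 0.36 in Parp1-/- DSS and 0.30, 0.04 and 0.03 in Parp1-/- water, and -0.91, -0.13 and 0.43 in wild-type DSS and -1.69, -1.24 and -1.43 in wild-type water. Its wild-type water arrays were again below the rest, with wild-type DSS 1 the nearest to them. Krt8, the type II partner, was 0.23, -0.03 and 0.03 in Parp1-/- DSS and 0.09, 0.08 and 0.03 in Parp1-/- water, and -1.19, -0.61 and 0.06 in wild-type DSS and -1.43, -1.29 and -0.87 in wild-type water. For Krt8 the wild-type DSS array 1 fell inside the range of the water arrays, so these 2 groups overlapped.

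Krt18 and Cdh1, the gene of E-cadherin, were each measured by 2 probe sets that went different ways, with Pearson's r over the 12 arrays of -0.08 for Krt18 and -0.03 for Cdh1. Probe sets with neighbouring numbers mostly belonged to genes of 1 strand, and for each of these genes 1 probe set lay in a block of plus-strand genes (20 of 20 numbered neighbours for Krt18, 19 of 20 for Cdh1) and the other in a block of minus-strand genes (20 of 20 and 19 of 20). RefSeq's gene table lists Krt18 on the plus strand and Krt8 on the minus strand. The sources used here do not say which strand or transcript a probe set reads. The plus-strand probe set was taken as an alternative after seeing the data.

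For Krt18, the probe set of the plus-strand block was 0.35, 0.19 and 0.31 in Parp1-/- DSS 1 to 3, 0.11, -0.08 and -0.02 in Parp1-/- water, -1.49, 0.02 and 0.10 in wild-type DSS and -1.23, -1.54 and -1.50 in wild-type water. That of the minus-strand block was -1.24, 0.84 and -1.32 in Parp1-/- DSS, -0.15, 0.01 and 0.42 in Parp1-/- water, 2.05, 1.66 and 1.48 in wild-type DSS and -1.41, -0.12 and -0.01 in wild-type water. The plus-strand values were lowest in wild-type water and wild-type DSS 1, and the minus-strand values were highest in the 3 wild-type DSS arrays. The r to Krt8 over the 12 arrays, which share the shift of 4 of them, was 0.92 for the plus-strand values and -0.08 for the minus-strand values. Over the 8 arrays without that shift it was 0.36 and -0.63, so the closeness to Krt8 rested largely on those 4 arrays. Cdh1 was split in a similar way.

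The plus-strand probe set of Cdh1 was 0.43, 0.16 and 0.49 in Parp1-/- DSS, 0.28, -0.09 and 0.09 in Parp1-/- water, -0.89, -0.11 and 0.37 in wild-type DSS and -2.72, -1.83 and -1.58 in wild-type water. Its minus-strand probe set was -1.02, 0.06 and -0.89 in Parp1-/- DSS, -0.07, -0.43 and 0.03 in Parp1-/- water, 2.69, 0.66 and 0.62 in wild-type DSS and -0.97, 0.16 and -0.03 in wild-type water. Averaged over both, Cdh1 was -0.13 ± 0.21 in Parp1-/- DSS, -0.03 ± 0.20 in Parp1-/- water, 0.56 ± 0.32 in wild-type DSS and -1.16 ± 0.59 in wild-type water, and Krt18 was -0.14 ± 0.57, 0.05 ± 0.13, 0.64 ± 0.31 and -0.97 ± 0.31 in the same order (SD, n = 3 each). The averages of these 2 genes therefore mix 2 patterns.

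**Figure D2:**
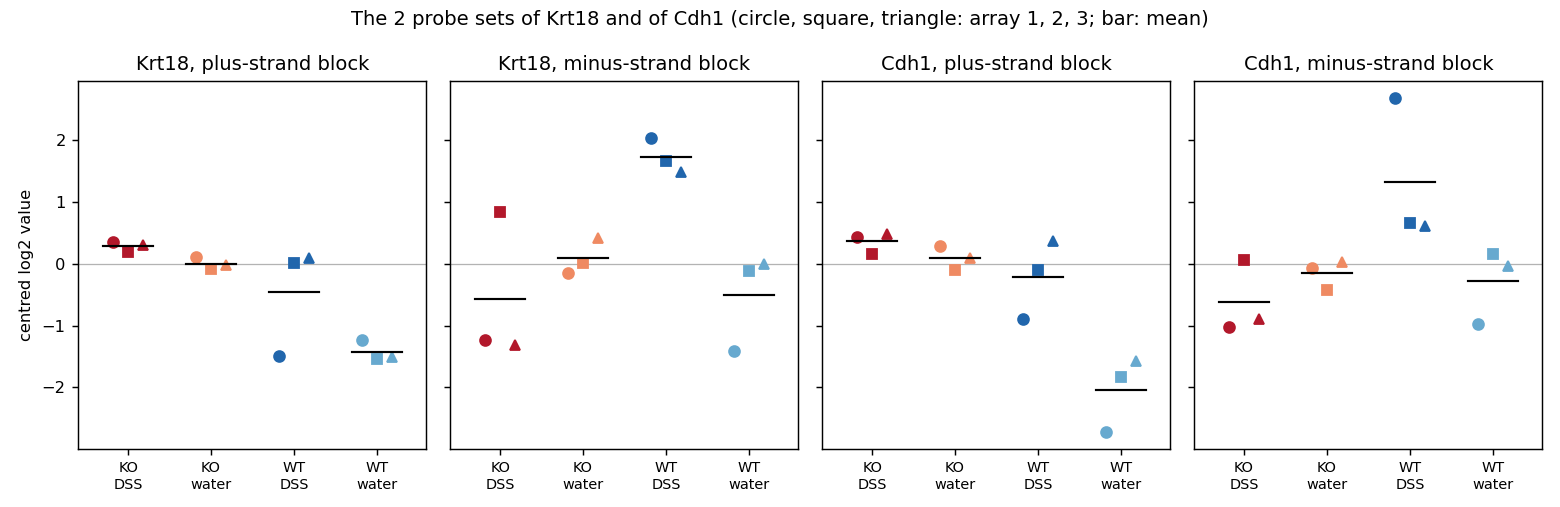
Centred log2 value (vertical axis) of the 2 probe sets of Krt18 and of Cdh1 in the 4 groups (KO is Parp1-/-, WT is wild type; 1 point per mouse, bar at the mean of 3). The plus-strand probe sets are lowest in wild-type water, with group means near those of the other epithelial genes, and the minus-strand probe sets are highest in wild-type DSS, where Krt18 lies between 1.48 and 2.05.

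The transcription factor genes behaved less evenly than the structural genes. Cdx1 was 0.76, -0.22 and 0.13 in Parp1-/- DSS and 0.53, 0.58 and 0.25 in Parp1-/- water, and -0.70, -0.13 and 0.88 in wild-type DSS and -1.15, -0.48 and -0.17 in wild-type water. Its Parp1-/- water arrays lay above its wild-type water arrays and the DSS groups overlapped both. Cdx2 was 0.65, -0.03 and -0.94 in Parp1-/- DSS and 0.17, 0.03 and -0.44 in Parp1-/- water, and -2.16, -1.06 and 0.80 in wild-type DSS and -0.69, 0.81 and 0.38 in wild-type water. No group of Cdx2 separated from another, and its SD of 1.49 within wild-type DSS was the largest of the 10 genes in any group. Unlike the 9 other genes, Cdx2 had its lowest array in wild-type DSS.

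In wild-type mice, DSS arrays had higher values than water arrays for 7 of the 10 genes, against 8.89% of all named genes called higher. Epcam rose by a log2 difference of 1.74 ± 0.17 (SE), 3.35-fold (limma adjusted p = 0.00012), and Krt20 by 1.74 ± 0.18 (limma adjusted p = 0.000164). Cdh17 had the largest difference of the 10, at 2.29 ± 0.26 (limma adjusted p = 0.000321). Vil1 rose by 1.83 ± 0.43 and Krt19 by 1.25 ± 0.29 (limma adjusted p = 0.0192 and 0.0179). Krt18 and Cdh1, as averages, rose by 1.60 ± 0.28 and 1.72 ± 0.28 (limma adjusted p = 0.00389 and 0.00273). With the plus-strand probe sets 6 of the 10 were called, against 8.88% of all genes: Cdh1 was called at 1.83 ± 0.34 (limma adjusted p = 0.00519) and Krt18 was not, at 0.97 ± 0.34 (limma adjusted p = 0.0823). Of the minus-strand probe sets, that of Krt18 was called at 2.24 and that of Cdh1 was not, at 1.60 (limma adjusted p = 0.0197 and 0.0673). Krt8 at 0.62 ± 0.27, Cdx1 at 0.62 ± 0.39 and Cdx2 at -0.97 ± 0.66 were not called (limma adjusted p = 0.15, 0.309 and 0.345). The median of the 10 differences was 1.66, beside -0.05 over all genes, and the 7 called genes were the 7 whose DSS arrays all lay above their water arrays, which held for 11.4% of all genes.

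Housekeeping genes moved in the same comparison, and their part in the result was not tested. The housekeeping genes had 9 of 18 called higher, with a median of 1.21. With each array expressed relative to its housekeeping mean, which moved the median of all genes to -1.12, Cdh17 was the only 1 of the 10 called higher, at 1.22 (limma adjusted p = 0.00827), and Cdx2 was called lower at -2.04 (limma adjusted p = 0.00631). Epcam was then at 0.67 and Vil1 at 0.76 (limma adjusted p = 0.0613 and 0.0519), and Krt8 and Cdx1, called on neither scale, changed sign to -0.45 each. On that scale 2.21% of all genes were called higher and 64.7% lower. With quantile normalization 2 of the 10 were called, Cdh17 at 1.28 and Epcam at 0.85, against 1.02% of all genes. Without wild-type DSS 1 the count was 8 of 10, against 19.7% of all genes, with Krt8 added at 0.92 ± 0.22 (limma adjusted p = 0.0113) and Vil1 at 2.49 ± 0.20. Leaving out wild-type DSS 2 gave 5, against 4.61% of all genes, and leaving out wild-type DSS 3 gave 5, against 5.83%.

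In Parp1-/- mice, none of the 10 genes was called between DSS and water, against 0.00938% of all named genes called in either direction. The differences ran from -0.23 for Cdx1 to 0.20 for Krt20, with a median of -0.01. Epcam differed by -0.04 with a 95% interval of -0.42 to 0.33, and Krt20 by 0.20 with an interval of -0.19 to 0.59, so changes of the size seen in wild-type mice lay outside these intervals. Cdx2, at -0.03, had an interval of -1.48 to 1.42, which is too wide to place it. All 10 genes overlapped between these groups, beside a share of 12.5% of all genes that did not, which in a set of 10 is little different. Over all genes limma called 2 at the adjusted threshold and 609 had an unadjusted p under 0.05, and quantile normalization called 85. The mean of smooth muscle genes was high in 1 of the 3 DSS arrays and 2 of the 3 water arrays of this genotype, while the mean of the 10 epithelial genes was 0.20 in that DSS array and 0.02 and 0.04 in those water arrays, against 0.04 and -0.04 in the other DSS arrays and 0.16 in the other water array.

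On plain water, Parp1-/- mice had higher values than wild-type mice for 8 of the 10 genes, against 17.9% of all named genes called higher and 13.7% called lower. Vil1 showed the largest difference, 2.52 ± 0.43 (limma adjusted p = 0.00246), followed by Cdh17 at 2.30 ± 0.26 and Epcam at 2.06 ± 0.17 (limma adjusted p = 0.000239 and 5.23e-05). The keratins Krt20, Krt19, Krt8 and Krt18 were higher by 1.64 ± 0.18, 1.58 ± 0.29, 1.26 ± 0.27 and 1.02 ± 0.28 (limma adjusted p = 0.000193, 0.00345, 0.00682 and 0.0203), and Cdh1 by 1.13 ± 0.28 (limma adjusted p = 0.0131). With the plus-strand probe sets, which kept the count at 8 against 17.9% of all genes, Krt18 differed by 1.43 ± 0.34 and Cdh1 by 2.14 ± 0.34 (limma adjusted p = 0.0108 and 0.00151). The minus-strand probe sets, at 0.60 for Krt18 and 0.13 for Cdh1, were not called (limma adjusted p = 0.38 and 0.859). Cdx1 at 1.06 ± 0.39 and Cdx2 at -0.25 ± 0.66 were not called (limma adjusted p = 0.0582 and 0.778). In 9 of the 10 genes, all but Cdx2, the Parp1-/- arrays lay above the wild-type arrays, which held for 26.2% of all genes. Both this comparison and that of DSS with water in wild-type mice use the same 3 wild-type water arrays, so their values are not independent.

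The same 3 wild-type water arrays carried the low housekeeping genes, of which 13 of 18 were called higher in Parp1-/- mice on water with a median of 1.49. Relative to the housekeeping mean, which moved the median of all genes to -1.57, Vil1 and Cdh17 were called higher at 1.02 and 0.80 (limma adjusted p = 0.01 and 0.0231) and Cdx2 lower at -1.75 (limma adjusted p = 0.00254), against 2.02% of all genes called higher and 76.3% lower. On that scale Cdh1, Krt18, Krt8 and Cdx1 changed sign, to -0.37, -0.48, -0.24 and -0.44, none of them called there. With quantile normalization 5 of the 10 were called higher, Vil1 at 1.57, Cdh17 at 1.19, Epcam at 1.18, Krt19 at 0.98 and Krt20 at 0.78, against 8.32% of all genes. Smooth muscle genes also moved with the comparison: their median difference was 2.57, with 0 of 10 called, and the list mean was 2.77 and 2.76 in Parp1-/- water 2 and 3, against -0.37 in Parp1-/- water 1. In a fit without those 2 arrays and Parp1-/- DSS 1, 1 of the 10 epithelial genes was called, Epcam at 2.003 ± 0.305 (limma adjusted p = 0.0375), against 0.685% of all genes. In that fit the other 7 genes called over 12 arrays had differences between 0.95 and 2.68, with a single Parp1-/- water array that was assumed to vary like the other groups.

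**Figure D3:**
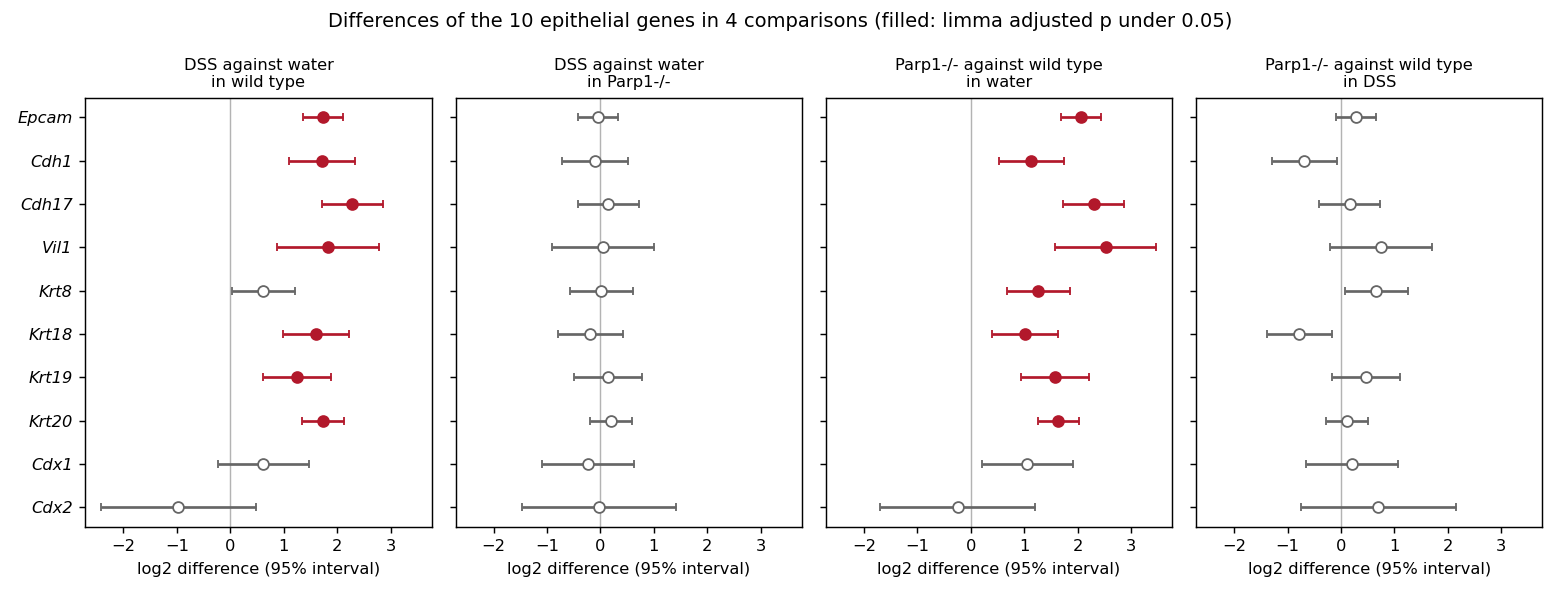
Log2 difference with its 95% interval (horizontal axis) of each of the 10 genes in 4 comparisons, from the limma fit of all 12 arrays; filled points have an adjusted p under 0.05. The 7 filled points for DSS against water in wild type and the 8 for Parp1-/- against wild type in water lie between 1.02 and 2.52, and no point is filled in the other 2 comparisons.

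Given DSS, none of the 10 genes was called between Parp1-/- and wild-type mice, and limma called 0 of all 21314 genes, or 0%, with 593 at an unadjusted p under 0.05. The differences ran from -0.78 for Krt18 to 0.75 for Vil1 with a median of 0.24, and their smallest adjusted p was 0.872. Epcam lay higher in all 3 Parp1-/- arrays than in the wild-type arrays and Cdh1 lower, while the 8 others overlapped; 6.55% of all genes did not overlap. For Krt18 and Cdh1 the direction depended on the probe set. The averages gave -0.78 and -0.68, the plus-strand probe sets 0.74 and 0.57, and the minus-strand probe sets -2.30 and -1.94. The single probe sets were not called either. Without wild-type DSS 1 the difference of Vil1 was 0.08 ± 0.20 and that of Epcam 0.12 ± 0.15, again not called (limma adjusted p = 1 for both). With limma's array weights, which give noisier arrays less say, 5 of the 10 were called between the genotypes on DSS, Krt8, Krt19 and Cdx2 higher and Krt18 and Cdh1 lower, against 29.0% of all genes called in either direction.

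The response to DSS itself differed between the genotypes for 5 of the 10 genes, each lower in Parp1-/- mice, against 2.33% of all named genes called lower. The Parp1-/- response minus the wild-type response was -1.79 ± 0.24 for Epcam, -2.14 ± 0.37 for Cdh17 and -1.53 ± 0.25 for Krt20 (limma adjusted p = 0.00416, 0.0132 and 0.0103). It was -1.82 ± 0.39 for Cdh1 and -1.80 ± 0.39 for Krt18, as averages of 2 probe sets (limma adjusted p = 0.0352 and 0.0372). Both calls were lost with the plus-strand probe sets, at -1.57 and -0.69 (limma adjusted p = 0.12 and 0.469). That left 3 genes called against 2.32% of all genes. The minus-strand probe sets, fitted on their own, were not called either, at -2.07 and -2.91 (limma adjusted p = 0.185 and 0.0733). Vil1 at -1.78 and Krt19 at -1.11 missed the threshold (limma adjusted p = 0.168 and 0.198), and so did Krt8 at -0.60, Cdx1 at -0.85 and Cdx2 at 0.94. Without wild-type DSS 1 the count was 7, against 11.8% of all genes called lower, with Vil1 added at -2.44 ± 0.26 and Krt19 at -1.46 ± 0.30 (limma adjusted p = 0.000597 and 0.0104). Relative to the housekeeping mean 0 of the 10 were called, against 0.0891% of all genes, with Cdx2 at 2.08, and with quantile normalization 0 were called, as of all genes (0%). The wild-type water arrays enter this difference too. In Parp1-/- mice the DSS response of the 10 genes ran from -0.23 to 0.20. Given DSS, the genotypes differed by -0.78 for Krt18 to 0.75 for Vil1.

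**Figure D4:**
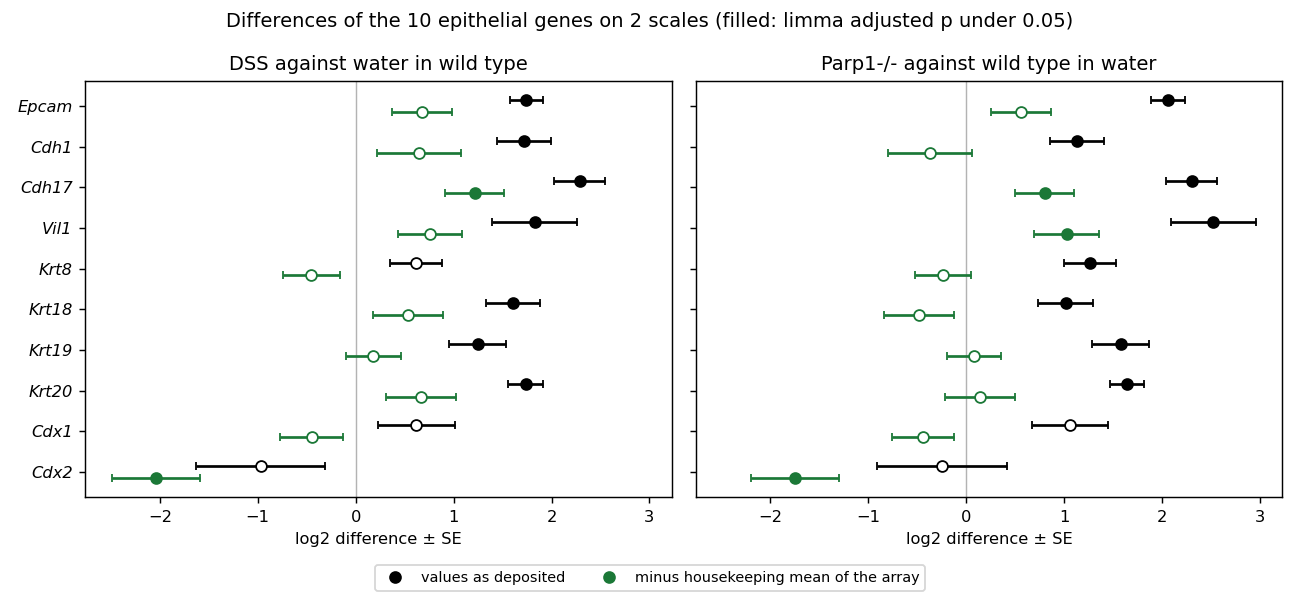
Log2 difference ± SE (horizontal axis) of the 10 genes in the 2 comparisons that use the wild-type water arrays, on the values as deposited (black) and relative to the mean of 18 housekeeping genes in each array (green); filled points have a limma adjusted p under 0.05. In wild-type DSS against water Cdh17 keeps a filled point above 0 on both scales, and in Parp1-/- against wild-type water Vil1 and Cdh17 do, while Cdx2 is filled below 0 on the housekeeping scale in both.

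How the 10 genes varied together depended on the arrays used. Over all 12 arrays, the r of each gene with the mean of the other 9 ran from 0.01 for Cdx2 to 0.97 for Krt19. In the 8 arrays whose housekeeping genes were not low, it ran from -0.47 for Krt20 to 0.66 for Cdx2. Vil1 and Krt19 stayed close in both sets, at r = 0.97 over 12 arrays and 0.98 over 8, and Cdx1 and Cdx2 were at 0.52 and 0.78. Epcam and Cdh17, at 0.98 over 12 arrays, were at -0.70 over 8. The points share an array each, so these are descriptions of these arrays.

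The genes whose pattern was most like the mean of the 10 over the 12 arrays were Ces2e, Slc44a1, Ubap2l, Leprot and Pigt, with r between 0.988 and 0.992, and 9.01% of 18126 genes ranked had r over 0.9. Ces2e, a carboxylesterase gene, was -2.40, -1.82 and -1.95 in wild-type water 1 to 3 and between -0.92 and 0.44 in the other arrays. Over the 8 arrays the closest were Hexim2, Pgap4, Colca2, Ccdc134 and Nt5el, with r between 0.958 and 0.979, and 0.359% of genes had r over 0.9. The mean of the 10 moved little there, from -0.05 to 0.39, with its highest value in wild-type DSS 3. Nt5el ran only from -0.04 to 0.09 in these arrays, and Ccdc134 from -0.19 to 0.65. A high r over 8 arrays therefore does not mean changes of like size. The 2 lists of 5 had 0 genes in common.

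Other epithelial genes were read from 7 lists of 73 measured genes covering junctions, brush border, transcription factors, surface markers and further keratins. In wild-type mice 24 of the 73 were called higher and 0 lower with DSS, against 8.89% of all genes called higher, with a median difference of 0.76. In Parp1-/- against wild-type mice on water 38 were called higher, against 17.9% of all genes, and 1 lower, with a median of 1.13. Between DSS and water in Parp1-/- mice and between the genotypes on DSS, 0 of the 73 were called, with medians of 0.08 and 0.35. The difference of the DSS responses was called lower for 10 of the 73, against 2.33% of all genes. These lists were mostly low in the same 4 arrays as the housekeeping genes, of which 9 and 13 of 18 were called higher in the first 2 comparisons: the mean of the adherens junction list was -1.39 to -0.86 in wild-type DSS 1 and the wild-type water arrays, against -0.17 to 0.25 in the other 8. The part of that shift in these counts was not tested.

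Among the partners of Cdh1 at the adherens junction, 4 of 9 genes rose with DSS in wild-type mice and 5 of 9 were higher in Parp1-/- mice on water. Over all genes 8.89% and 17.9% were called higher in these 2 comparisons, and of 18 housekeeping genes 9 and 13 were. Ctnna1, the alpha-catenin that links cadherin complexes to actin, rose by 1.87 ± 0.33 and was 2.58 ± 0.33 higher in Parp1-/- mice (limma adjusted p = 0.00406 and 0.000455). Vcl, encoding vinculin, and Ctnnd1, encoding p120-catenin, rose by 1.27 and 1.26 with DSS and differed by 2.32 and 1.52 between the genotypes. Of 7 desmosome genes, where keratin filaments anchor, 2 and 4 were called in the same 2 comparisons. Dsp, encoding desmoplakin, was at 2.42 ± 0.32 and 2.85 ± 0.32 (limma adjusted p = 0.000782 and 0.000238), and Dsc2, a desmosomal cadherin gene, at 1.34 and 1.55. Dsp was also the desmosome gene whose DSS response was called lower in Parp1-/- mice, at -2.20 (limma adjusted p = 0.0288).

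Of 15 brush border core and tip link genes measured, 6 rose with DSS in wild-type mice, against 8.89% of all genes called higher. In Parp1-/- mice on water 8 were higher, against 17.9% of all genes. Pls1, encoding the actin bundler plastin that works beside villin, was at 2.33 ± 0.28 and 2.39 ± 0.28, and Calml4, a light chain at the tip links, at 2.71 ± 0.32 and 2.11 ± 0.32 (limma adjusted p between 0.000293 and 0.00132 for these 4 values). Of 8 brush border enzyme genes, 2 rose with DSS and 4 were higher in Parp1-/- mice on water, against the same shares of all genes. In Parp1-/- mice on water 1 was lower, against 13.7% of all genes called lower. Alpi, encoding intestinal alkaline phosphatase, was at 2.01 and 2.02, and Mep1a, a meprin subunit gene, at 1.86 and 1.64. Dpp4, encoding a dipeptidyl peptidase, was 1.68 higher in Parp1-/- mice on water. For Alpi, Mep1a, Calml4 and Pls1 the DSS response was called lower in Parp1-/- mice, at -2.26, -1.70, -2.38 and -2.08.

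Cdx1 and Cdx2 were not called in any comparison of the main limma fit of all 12 arrays. Under alternative settings, Cdx1 was called higher in Parp1-/- mice on water in 6 of 23. These included limma's trend and robust options and the fit without wild-type DSS 1. In the latter it was at 1.06 ± 0.33 (limma adjusted p = 0.0275). Relative to the housekeeping mean it was at -0.44 and not called. Of 16 other intestinal and epithelial transcription factor genes, 5 rose with DSS in wild-type mice and 9 were higher in Parp1-/- mice on water. The shares of all genes called higher in these comparisons were 8.89% and 17.9%. Gata6, encoding a zinc finger factor of intestinal development, was at 2.27 ± 0.23 and 2.29 ± 0.23 (limma adjusted p = 0.000167 and 0.000151). Esrp1, which directs epithelial splicing and was listed with these factors, was at 1.87 and 2.19, Isx, an intestinal homeobox gene, at 1.67 with DSS, and Hnf4g, a nuclear receptor gene, at 2.08 between the genotypes. Of 14 other epithelial surface and secreted markers, 5 and 8 were called: Muc13, a membrane mucin gene, at 2.46 in both comparisons, and Gpa33, a colonocyte surface antigen gene, at 2.04 and 2.43. Lgals4, a galectin gene of the gut, was 2.17 higher in Parp1-/- mice.

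Other keratin genes were read as well. None of 4 further keratin genes, Krt7, Krt23, Krt80 and Krt222, was called in any comparison. Their median differences were -0.10 with DSS in wild-type mice and 0.00 between the genotypes on water. Of 9 squamous keratins and markers, which belong to stratified epithelium such as the anal lining, 0 were called with DSS, at a median of -0.19, and 3 were lower in Parp1-/- mice on water, against 13.7% of all genes called lower, at a median of -0.45. These were Dsg3 at -1.07, Krt4 at -0.78 and Trp63 at -0.76 (limma adjusted p = 0.0166, 0.00637 and 0.0113). The mean of this list was 0.22 to 0.46 in the 4 arrays with low housekeeping genes, against -0.24 to 0.19 in the other 8, and smell receptor genes were high in the same 4 arrays; the part of that shift in these calls was not tested.

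**Figure D5:**
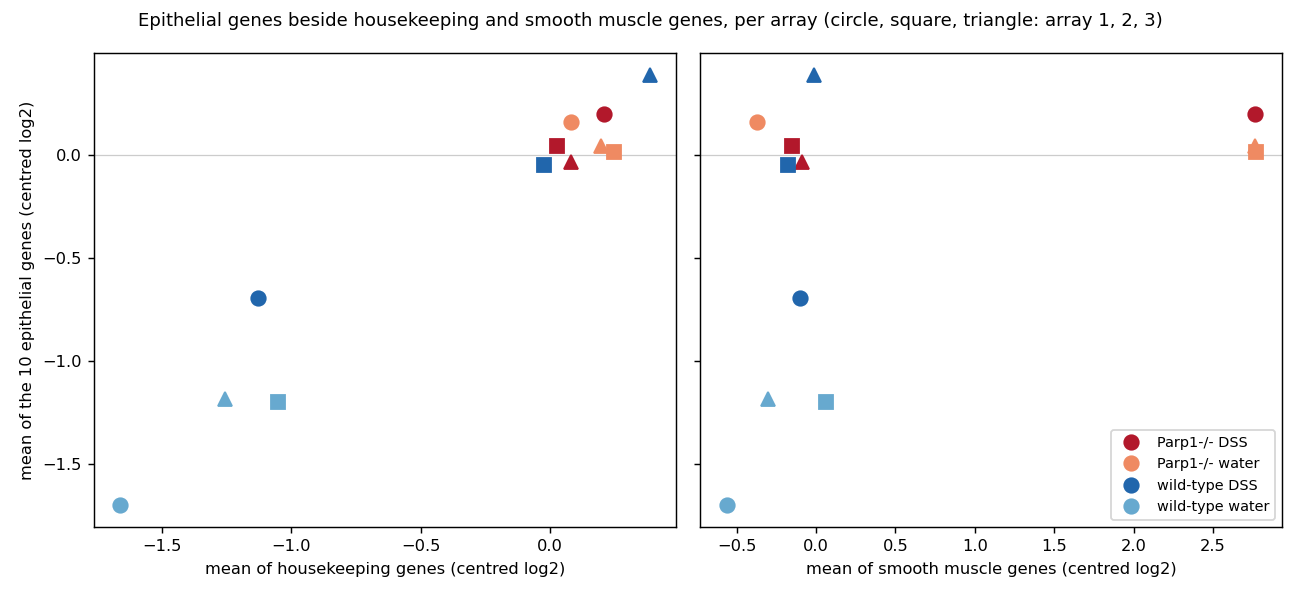
Mean centred log2 value of the 10 epithelial genes (vertical axis) against the mean of 18 housekeeping genes (left) and of 10 smooth muscle genes (right), 1 point per array in the 4 groups. The 3 wild-type water arrays and wild-type DSS 1 are low on both axes of the left panel, with housekeeping means of -1.66 to -1.05, and the 3 arrays near 2.77 in the right panel have epithelial means of 0.02 to 0.20.

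Genes of other cell types were read for comparison. Of 9 leukocyte genes, 4 rose with DSS in wild-type mice, against 8.89% of all genes called higher, with a median of 1.03. Among them were Cd68 of macrophages at 1.54, Ptprc, the pan-leukocyte CD45 gene, at 1.49 and Cd3e of T cells at 1.24. In Parp1-/- mice with DSS 0 were called, at a median of 0.53, against 0.00938% of all genes called in either direction. The housekeeping genes had medians of 1.21 in wild-type mice, with 9 of 18 called, and 0.00 in Parp1-/- mice. The part of that shift in the leukocyte counts was not tested. The mean of the leukocyte list was between 0.04 and 0.55 in Parp1-/- DSS, -0.20 and -0.11 in Parp1-/- water, -0.06 and 0.85 in wild-type DSS and -0.55 and -0.29 in wild-type water. Of 7 genes of the epithelial to mesenchymal transition, 2 rose with DSS in wild-type mice, against 8.89% of all genes called higher. These were Vim at 1.48, the intermediate filament gene of mesenchymal cells and leukocytes, and Snai2 at 1.14, a repressor of Cdh1 in other settings. Fn1, encoding fibronectin, was the 1 called between the genotypes on water, at 2.41, against 17.9% of all genes called higher. Its values were -1.55, 1.75 and 1.67 in Parp1-/- water 1 to 3 and -2.23, -1.53 and -1.60 in wild-type water. Parp1-/- water 1 thus lay within the wild-type range. Parp1-/- water 2 and 3 were also the arrays of that group high in smooth muscle genes. Of 5 mesothelial genes 0 were called in either comparison. The centring removes absolute levels, so whether a marker list is expressed in this tissue at all was not tested.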

How the data were processed

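Colon RNA from 12 mice was biotin-labelled for 12 Affymetrix arrays, according to the labels; the labels give no batch and no scan time. The authors deposited log2 values of 31693 probe sets. Their software, background correction and normalization are not stated in the labels. The values ran from -4.83 to 5.47 and the 12-array median of a probe set was 0 within 5e-07, which shows centring by probe set; the log base and the direction are unknown, and base 2, with a larger value meaning more RNA, was taken. Without scanner files the signal over background could not be read. All arrays differed from each other.

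GEO's platform annotation gave 22586 probe sets 1 gene symbol, 1756 several and 7351 none. The first kind was averaged into 21314 genes, of which 20283 had 1 probe set. A single limma model (version 3.58.1 under R 4.3.3, with lmFit and eBayes) held the 4 groups over 12 arrays without covariates. Benjamini-Hochberg adjustment covered all genes tested. Simulated data over 21314 genes, drawn for DSS against water in wild type, gave back 49% of changes of 1 and 82% of changes of 2 on the log2 scale, with 17 unchanged genes called. The noise was drawn for each gene on its own, without a shift shared by arrays, so these values need not hold for the data. Each mouse was a separate animal. Python 3.11.15, pandas 2.3.3 and matplotlib 3.10.9 made the tables and figures.

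The text names the 10 genes, Parp1, up to 3 called genes with the largest change of each other list in a comparison (otherwise the 2 of smallest p), and the 5 genes most like the mean of the 10, leaving out predicted genes. The 10 genes and all lists were chosen with earlier results of these data known. Alternatives were array medians set equal, quantile normalization, subtraction of the housekeeping mean, limma's array weights, its trend and robust options, only the groups compared, the smooth muscle mean as a covariate, fits of 8 and of 9 arrays, an adjusted p under 0.01, single probe sets and leaving out each array; the plus-strand probe sets of Krt18 and Cdh1 were added after seeing the data.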

Additional observations from a re-analysis of the deposited data

Results flagged for a closer look

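The response to DSS differed between the genotypes for 5 of the 10 genes by a test of the difference itself, the interaction term of the limma fit over 12 arrays, against 2.33% of all genes called lower. The Parp1-/- response minus the wild-type response was -1.787 for Epcam, -1.816 for Cdh1, -2.143 for Cdh17, -1.797 for Krt18 and -1.535 for Krt20 on the log2 scale (limma adjusted p = 0.00416, 0.0352, 0.0132, 0.0372 and 0.0103). For Epcam the mean response was -0.04 in Parp1-/- mice and 1.74 in wild-type mice, for Cdh17 0.14 and 2.29, and for Krt20 0.20 and 1.74. Cdh1 and Krt18 lost the call with the plus-strand probe sets (limma adjusted p = 0.12 and 0.469), and all 5 lost it with quantile normalization, with subtraction of the housekeeping mean, with limma's trend and robust options and without 3 arrays high in smooth muscle genes. Fitted on their own, the minus-strand probe sets of Cdh1 and Krt18 were not called either (limma adjusted p = 0.185 and 0.0733). The wild-type water arrays, against which the wild-type response is read, had low housekeeping genes, and the part of that shift in these differences was not tested.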

How the results depend on the processing

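The counts of the 10 genes called were 7 for DSS against water in wild type, 0 for the same in Parp1-/-, 8 for Parp1-/- against wild type in water, 0 for the same in DSS and 5 for the difference of the DSS responses. For DSS in wild type, the genotypes on water and the difference of responses, quantile normalization gave 2, 5 and 0 and subtraction of the housekeeping mean 2, 3 and 0, Cdx2 being the 1 called lower in the first 2. On the housekeeping scale the differences of Cdh1, Krt18, Krt8 and Cdx1 between the genotypes on water turned to -0.37, -0.48, -0.24 and -0.44, and those of Krt8 and Cdx1 with DSS in wild type to -0.45 each. For the difference of the responses the trend and robust options gave 0 (0.601% of all genes called lower, against 2.33%), an adjusted p under 0.01 gave 1 (0.629%), the smooth muscle covariate 3 (1.52%), the 9 arrays 0 (0%), the plus-strand probe sets 3 (2.32%) and single probe sets 3 (2.35%). For Parp1-/- against wild type in water the smooth muscle covariate gave 5 (6.48% of all genes called higher, against 17.9%) and the 9 arrays 1 (0.685%), and array weights gave 5 in DSS. Leaving out each array in turn gave 5 to 8 for DSS in wild type, 0 to 0 in Parp1-/-, 6 to 9 between genotypes in water, 0 to 0 in DSS and 3 to 7 for the difference, with 7 reached without wild-type DSS 1 and 3 without Parp1-/- DSS 1 or 3, any Parp1-/- water array, or wild-type DSS 2 or 3. Of all 21314 genes, the same fits called 983 (4.61%) to 4191 (19.7%) higher for DSS in wild type. They called 2172 to 4960 higher between genotypes in water and 174 to 2508 lower for the difference. The cause of these changes was not tested. Over 1170 values of single genes under alternatives, 1000 kept direction and side of the threshold, 100 lost the call, 20 gained one, 47 changed sign without a call and 3 called values changed sign.

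Among all genes, DSS against water in wild type had 1894 higher and 887 lower, and Parp1-/- against wild type in water 3813 and 2912. These were 218 and 14, and 1773 and 446, after quantile normalization, 470 and 13793, and 431 and 16273, relative to housekeeping genes, and 1982 and 665, and 4133 and 1654, with array medians set equal. The 8 arrays give a value only where wild-type water is not used, with 0 of the 10 called in both such comparisons, and a fit of only the groups compared gives none for the difference of responses. No paired analysis was possible because the labels give each mouse its own number and share none between groups. With 3 arrays a group and no signal over background, small differences and absent expression could not be read.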
